A study of Homo sapiens with 9 samples.

Results

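The TGF-beta and BMP pathway is described here in RNA-seq of MDA-MB-231, a claudin-low breast cancer line, and of its metastatic sub-populations. The 47 members were taken by gene symbol from the deposited counts, which hold 58884 genes, and fall into 12 ligands, 12 receptors, 11 SMADs and their regulators, 8 antagonists and latent binding proteins and 4 ID targets. The study compared the parental line (Par) with cells that were selected in mice for colonization of the lung (LM2) or of the brain (BrM2), which are all human cells grown as monolayers in the same serum-containing medium with no other treatment. Each line had 3 replicates, harvested at different passages according to the methods of the study, so that the spread between replicates is that of passages of 1 line and each line stands for 1 selected population. Reads were counted per gene in 9 libraries.

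The ligands of this family are secreted dimers that bring type I and type II serine/threonine kinase receptors together on the cell surface. TGF-beta and activin receptors phosphorylate SMAD2 and SMAD3, BMP receptors phosphorylate SMAD1 and SMAD5, and both groups enter the nucleus with SMAD4 to regulate genes such as those of the ID family. Latent binding proteins hold TGF-beta in the matrix, extracellular antagonists such as follistatin and noggin capture the ligands, and SMAD6 and SMAD7 inhibit the receptors from inside the cell. In breast cancer the pathway is known both for arrest of epithelial growth and for invasion and metastasis.

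Counts on genes totalled 14371858 to 24511786 per library. The first replicate stood apart from the other 2 in all 3 lines, and libraries of equal replicate number deviated from their line means in the same way. Replicates 2 and 3 of different lines did so too, so that the values set replicate 1 apart but do not clearly pair replicates 2 and 3. Each result is therefore also read without replicate 1 or with the replicate number as a block. Of the epithelial and mesenchymal markers, VIM was at 636 to 1880 CPM (counts scaled to a common library size), AXL at 999 to 2470 CPM and keratins 8, 18, 19 and 7 were present, while CDH1, CLDN3 and CDH2 were below the filter on low counts. The other tight junction and epithelial genes were not all low, with CLDN4 at 72.7 to 107 CPM in Par, CLDN7 at 11.9 to 14.6, and EPCAM and OCLN tested. Several of these markers differed between the lines. CLDN4 was 16.3-fold lower in LM2 and 4.78-fold lower in BrM2 than in Par, KRT7 2.8-fold and 8.01-fold lower, KRT19 4.52-fold lower in LM2, OCLN 2.85-fold higher in BrM2 and VIM 2.12-fold and 2.07-fold higher (adjusted p at most 0.0275, edgeR). FN1, also a mesenchymal marker, was at 800 to 1050 CPM in Par, 1120 to 1150 in LM2 and 275 to 308 in BrM2, opposite to VIM in BrM2. CD44, ZEB1 and AXL overlapped Par in both sub-populations. The part of these markers in the results for the members was not tested. The immune markers summed to at most 0.63 CPM and the erythroid markers to at most 0.0497 CPM in any library. In RNA from bulk cultures, fewer cells expressing a gene and less RNA per cell cannot be told apart.

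Of the 47 members, 41 passed the filter on low counts and were tested with edgeR, while BMP2, BMP6, GDF6, ACVRL1, GREM1 and ID2 did not. The filter keeps a gene on its highest library, so that members high in 1 line only could enter through that line. A gene is called where its adjusted p is under 0.05, and 2 of the 41 members were called in LM2 vs Par, 1 higher and 1 lower, which is 4.88% against 8.69% of all 13055 genes tested (4.17% higher and 4.52% lower). In BrM2 vs Par 11 members differed, 5 higher and 6 lower, which is 26.8% against 13.3% of all genes (6.25% higher and 7.02% lower). BrM2 differed directly from LM2 in 4 members, 9.76% against 8.1% of all genes. The 3 comparisons share libraries, so that their counts are not independent of each other. With the replicate block the counts rose to 21, 23 and 18 members, beside 34.5%, 42.7% and 37.5% of all genes. Without replicate 1 they were 20, 20 and 10, beside 4327, 5274 and 4257 of all 13055 genes. Without replicate 2 they were 1, 2 and 0, beside 70, 159 and 53 of all genes. Without replicate 3 they were 1, 3 and 0, beside 136, 274 and 113 of all genes. The fit without replicate 2 left 6 members at an unadjusted p under 0.05 in BrM2 vs LM2, where DESeq2 on all libraries called 7. The block added 45 calls over the 3 comparisons, of which 29 also passed without replicate 1 and 11 with DESeq2, and 14 in no other alternative. The median log2 fold change over the members was -0.13 for LM2 against Par and -0.02 for BrM2 against Par, where the median over all genes was 0.01 and -0.02.

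**Figure D1:**
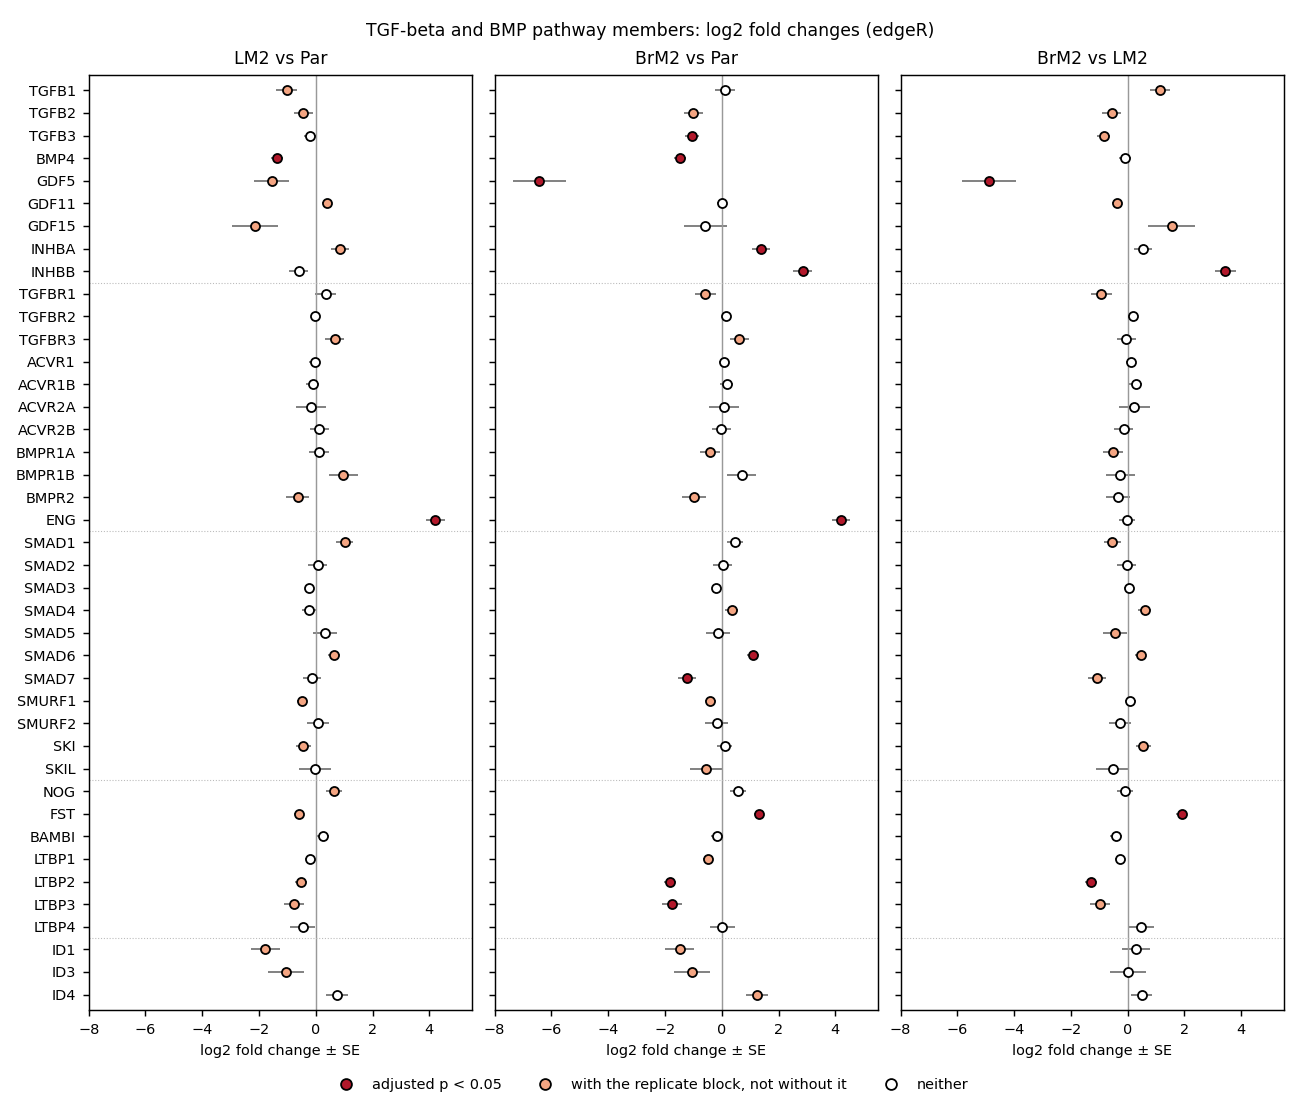
Log2 fold change ± SE (edgeR, x axis) of the 41 tested members, grouped by role from ligands at the top to ID targets at the bottom, in the 3 comparisons. Dark points are the 2, 11 and 4 members called, light points are those called with the replicate block but not without it, and open points are neither. GDF5 lies farthest left in both BrM2 panels and ENG farthest right in both comparisons with Par.

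The sequences below are the 250 bases before the RefSeq transcription start of the called member with the largest change in each role with a called member, and show the promoters whose transcripts moved most. The ligand GDF5 is read from chr20:35454750-35454999, the receptor ENG from chr9:127854659-127854908, SMAD7 from chr18:48950966-48951215, all on the minus strand, and the antagonist FST from chr5:53480379-53480628 on the plus strand of GRCh38.p14.
GDF5: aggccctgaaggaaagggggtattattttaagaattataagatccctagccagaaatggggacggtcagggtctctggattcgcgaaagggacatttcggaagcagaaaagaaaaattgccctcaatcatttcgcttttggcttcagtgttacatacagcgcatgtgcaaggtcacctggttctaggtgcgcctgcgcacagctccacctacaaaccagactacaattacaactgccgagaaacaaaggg
ENG: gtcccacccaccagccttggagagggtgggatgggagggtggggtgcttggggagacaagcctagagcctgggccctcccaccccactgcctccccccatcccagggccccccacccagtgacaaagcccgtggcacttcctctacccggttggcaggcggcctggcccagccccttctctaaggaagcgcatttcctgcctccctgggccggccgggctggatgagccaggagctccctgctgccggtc
SMAD7: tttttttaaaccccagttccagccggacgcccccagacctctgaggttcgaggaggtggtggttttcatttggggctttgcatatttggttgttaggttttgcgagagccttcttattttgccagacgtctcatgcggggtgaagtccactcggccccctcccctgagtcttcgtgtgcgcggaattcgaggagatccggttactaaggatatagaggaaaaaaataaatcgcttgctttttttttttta
FST: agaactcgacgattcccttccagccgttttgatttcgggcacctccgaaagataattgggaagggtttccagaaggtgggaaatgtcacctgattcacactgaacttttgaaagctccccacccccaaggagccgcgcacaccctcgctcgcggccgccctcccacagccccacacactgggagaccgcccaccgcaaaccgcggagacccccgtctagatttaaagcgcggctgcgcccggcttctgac
The GC content of these stretches was 47.6% for GDF5, 69.6% for ENG, 48% for SMAD7 and 60% for FST.

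RefSeq windows from 250 bases before to 50 bases after the start were found for 42 of the 47 members, 74 windows in all, and were searched on both strands for 3 motifs of SMAD proteins. The palindrome GTCTAGAC, which SMAD3 and SMAD4 bind, was in 0.202% of all 35116 windows and in 1 of the 74 member windows, that of SMAD6. The GC-rich motif GGCGCC was in 24.3% of member windows and 19.2% of all windows, and CAGACAG, which holds the CAGAC letters of the SMAD box, was in 8.11% and 6.11%. GTCTAGAC and CAGACAG share the letters AGAC but can overlap by no more than 1 base at their ends, and each was counted on its own. None of the 3 was in the 250 bases shown above. Among the other called members, SMAD6, INHBB and LTBP2 had a match before a start that opens the gene. These stretches are shown as the promoters of called members that carry such letters, with the motif in capitals. BMP4 had matches as well, at starts inside the gene.
SMAD6, chr15:66702188-66702235, plus strand: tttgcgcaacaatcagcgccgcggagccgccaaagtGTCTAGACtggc
INHBB, chr2:120345929-120346006, plus strand: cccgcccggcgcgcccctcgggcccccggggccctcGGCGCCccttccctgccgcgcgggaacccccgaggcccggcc
LTBP2, chr14:74612418-74612487, minus strand: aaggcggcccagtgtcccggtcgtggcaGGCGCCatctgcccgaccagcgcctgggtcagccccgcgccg
A match of letters is a description and does not show that a SMAD is bound there.

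Of the 9 ligands tested, 1 was called lower in LM2, and in BrM2 2 were called higher and 3 lower than in Par. That is 11.1% and 55.6% of the ligands, beside 8.69% and 13.3% of all genes. BMP4 (chr14:53949736-53956891), a bone morphogenetic protein, was the ligand with the highest level per kilobase of exon in all 3 lines, at 120 CPM per kb in Par. BMP4 was at 399, 387 and 325 CPM in Par, 145, 147 and 138 in LM2 and 171, 101 and 129 in BrM2. Both sub-populations lay below every Par library and overlapped each other. The log2 fold change was -1.37 ± 0.21 (SE) in LM2, a 2.58-fold lower level (adjusted p = 0.00462), and -1.47 ± 0.22 in BrM2, 2.77-fold lower (adjusted p = 0.00225), and BMP4 remained called in all 9 fits that left out a single library. Left without replicate 2 of every line, neither call held (adjusted p = 0.192 and 0.164), nor without replicate 3 (0.212 and 0.134).

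GDF5 (chr20:35433347-35454749), a ligand of skeletal and joint development, was at 7.62, 4.89 and 3.22 CPM in Par and at 2.83, 1.63 and 0.919 CPM in LM2. The BrM2 libraries held 3, 0 and 0 counts. The level fell in the order Par, LM2, BrM2 in every replicate number, and the groups did not overlap. From 328 counts in Par, the rate in Par was 95.8 times that in BrM2, with a counting interval of 32.5 to 467 (95%, exact, counting error only), and from 121 counts the rate in LM2 was 32.5 times that in BrM2, with an interval of 10.9 to 160. In both comparisons BrM2 could be called only as lower, since GDF5 passed the filter on low counts through Par and LM2 alone. Both differences were called (adjusted p = 0.00217 and 0.0146). The first did not hold without replicate 2 of every line (adjusted p = 0.121), and the second not without BrM2 replicate 2 (0.0636), BrM2 replicate 3 (0.0713), replicate 2 of every line (0.344) or replicate 3 of every line (0.157). The lower level in LM2 than in Par (log2 -1.55 ± 0.61) passed with the block and without replicate 1 (adjusted p = 0.00151 and 0.0161), but not in the fit of all libraries without the block (0.186).

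The activin genes moved the other way in BrM2. INHBB (chr2:120346136-120351803) encodes the beta B subunit of activins and inhibins. INHBB was at 3.94, 6.44 and 5.89 CPM in Par, 4.77, 3.55 and 2.49 in LM2 and 46.4, 26.3 and 44.7 in BrM2. All BrM2 libraries were above all others, by 7.2-fold over Par (log2 2.85 ± 0.35, adjusted p = 0.000893) and 10.9-fold over LM2 (log2 3.44 ± 0.36, adjusted p = 0.000581). The call against Par held under all 18 alternatives run, with adjusted p of at most 0.0499. The call against LM2 did not hold without replicate 2 of every line (adjusted p = 0.0653) or replicate 3 of every line (0.0585). INHBA (chr7:41685114-41705406), the beta A subunit, was lower in level, at 1.52, 2.18 and 2.59 CPM in Par, 2.48, 4.73 and 4.14 in LM2 and 4.72, 6.75 and 5.08 in BrM2. INHBA was 2.62-fold higher in BrM2 than in Par (log2 1.39 ± 0.32, adjusted p = 0.0222) with no overlap of the libraries. That call did not hold without Par replicate 1 (adjusted p = 0.0777), Par replicate 2 (0.081), BrM2 replicate 2 (0.0776) or BrM2 replicate 3 (0.0615). Nor did it hold without replicate 2 of every line (0.366) or replicate 3 of every line (0.189). In LM2 INHBA was 1.8-fold of Par and passed with the block (adjusted p = 0.17 without and 0.0133 with it) and without replicate 1 (0.0252).

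The 3 TGF-beta isoforms differed in level and in direction. Per kilobase, TGFB1 and TGFB2 stood at 15.4 and 16.5 CPM per kb in Par and TGFB3 at 0.887. TGFB3 (chr14:75958097-75983011) was at 4.1, 4.89 and 4.91 CPM in Par, 4.87, 3.43 and 3.83 in LM2 and 2.07, 2.56 and 2.06 in BrM2. BrM2 lay below all Par and LM2 libraries, and was 2.07-fold lower than Par (log2 -1.05 ± 0.24, adjusted p = 0.0189). The call was lost without Par replicate 2 (adjusted p = 0.0753), Par replicate 3 (0.0709), BrM2 replicate 1 (0.0505) or BrM2 replicate 3 (0.092), and with no filter on low counts (0.0812). It was also lost without replicate 2 of every line (0.308) or replicate 3 of every line (0.454). The difference of BrM2 from LM2 passed with the block (adjusted p = 0.0139) and with DESeq2 (0.0162).

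TGFB1, the isoform most studied in cancer, was at 60.7, 50.9 and 38.9 CPM in Par, 36.8, 18.9 and 18 in LM2 and 76.5, 41.4 and 44.7 in BrM2. All LM2 libraries were below all Par and BrM2 libraries, while Par and BrM2 overlapped. The difference of LM2 from Par (log2 -1.03 ± 0.36) and of BrM2 from LM2 (log2 1.14 ± 0.36) passed with the block (adjusted p = 0.133 and 0.101 without, 0.000318 and 0.000226 with it). Both also passed without replicate 1 (0.000871 and 0.00108) and without LM2 replicate 1 (0.0298 and 0.0243), and the second with DESeq2 (0.0361). TGFB1 shares 6.59% of its exon length with HNRNPUL1 on the opposite strand, and the strand that was counted is not given in the sources used here. Overlaps of this kind also touch ACVR2A (6.68%), SMURF1 (11.7%) and SMURF2 (2.5%). TGFB2 was at 70.9, 102 and 126 CPM in Par, 51.4, 74.7 and 95.2 in LM2 and 33.4, 54.9 and 61.6 in BrM2, with replicate 1 lowest in each line. BrM2 was below all Par libraries, and the difference (log2 -0.997 ± 0.33) passed with the block (adjusted p = 0.0868 without and 3.92e-05 with it), with DESeq2 (0.0275) and without replicate 1 (0.00185). GDF15, a stress-induced member of the family, was between 2.24 and 3.68 CPM in Par and between 0.0766 and 1.34 CPM in LM2 and overlapped Par in BrM2, and GDF11 was between 20.8 and 33 CPM in all libraries. Neither was called in the fit of all libraries without the block, while GDF15 in LM2 vs Par passed with no filter on low counts (adjusted p = 0.0204) and without replicate 1 (0.00613).

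**Figure D2:**
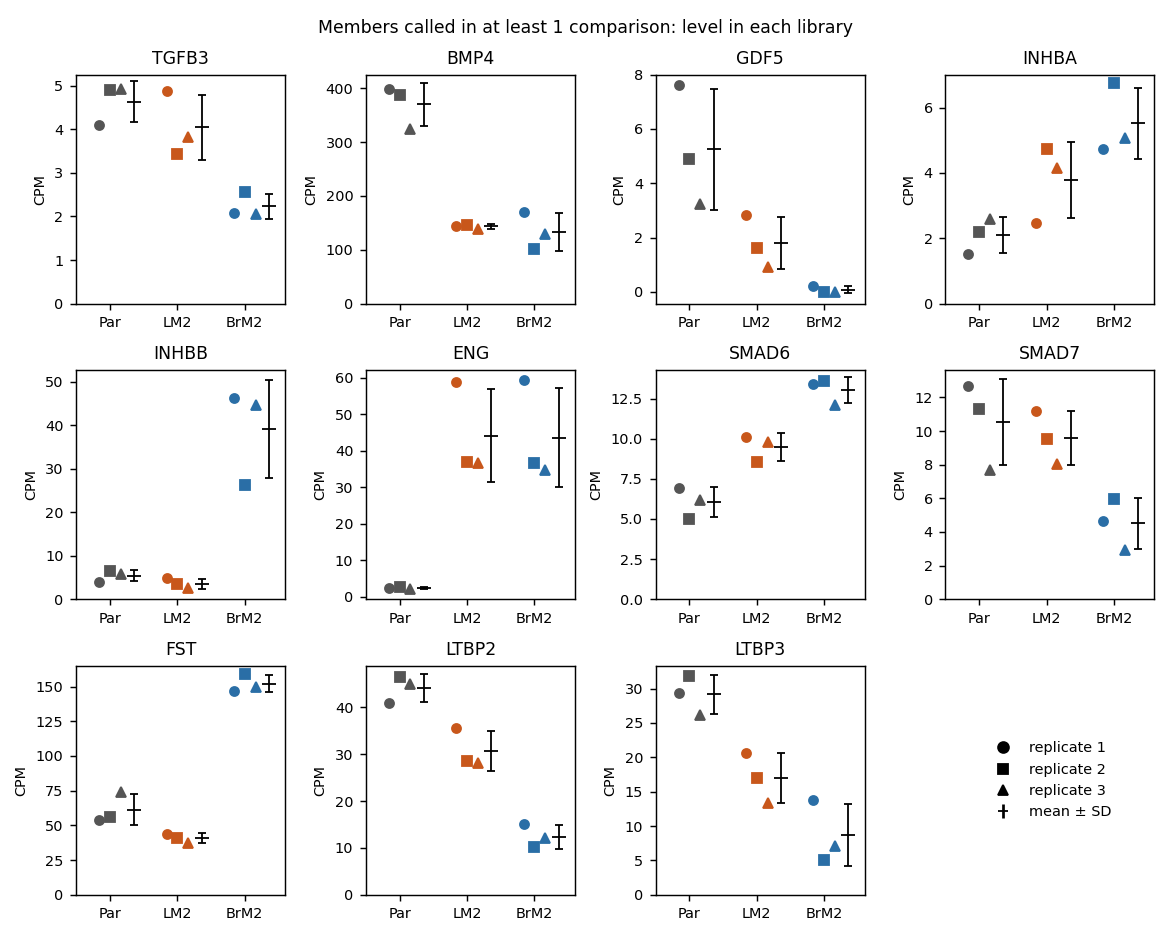
CPM (y axis, linear, scaled for each panel) of the 11 called members in each library of Par, LM2 and BrM2, with a marker for each replicate number and the mean ± SD of 3 replicates beside the points. ENG rises from at most 2.61 CPM in Par to at least 34.7 CPM in both sub-populations, INHBB and FST are high in BrM2 alone, and GDF5 ends near 0 in BrM2.

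The receptors differed in 1 gene of the 11 tested. That is 9.09% in each comparison with Par, beside 8.69% of all genes in LM2 and 13.3% in BrM2. ENG (chr9:127815016-127854658) encodes endoglin, a co-receptor for TGF-beta and BMP ligands that is abundant on endothelial cells. ENG was at 2.26, 2.61 and 2.24 CPM in Par, 58.9, 36.8 and 36.6 in LM2 and 59.2, 36.7 and 34.7 in BrM2. Every library of either sub-population was far above Par and replicate 1 was the highest in both. The level was 18.6-fold that of Par in LM2 (log2 4.21 ± 0.32, adjusted p = 0.000135) and 18.3-fold in BrM2 (log2 4.20 ± 0.32, adjusted p = 0.000119), and the call held under all 18 alternatives in both comparisons. Without replicate 1 the log2 fold changes were 3.92 and 3.90. BrM2 and LM2 differed by -0.02 ± 0.28 on the log2 scale (adjusted p = 0.983). The 4 other endothelial markers summed to 6.84 to 13.2 CPM in Par, 6.85 to 9.12 in LM2 and 9.82 to 12.4 in BrM2, with CDH5 at most 0.177 CPM and TEK at most 0.236 CPM. KDR was at 3.63 to 5.74 CPM in Par, 4.69 to 6.63 in LM2 and 6.79 to 9 in BrM2, where it lay above all Par libraries and passed with the block (log2 0.69 ± 0.26, adjusted p = 0.125 without and 0.0169 with it), and PECAM1 was at 3.1 to 7.19 CPM in Par, 2.08 to 2.38 in LM2 and 2.88 to 3.69 in BrM2. In LM2 PECAM1 lay below all Par libraries and passed with the block (log2 -1.18 ± 0.31, adjusted p = 0.0514 without and 0.00442 with it). The part of these markers in the level of ENG was not tested. An antisense gene covers 8.15% of the exon length of ENG and held a mean of 36.3 counts over the 9 libraries. ENG itself held 43, 54 and 57 counts in Par and 724 to 1186 counts in the sub-populations. The counts of the antisense gene in each line are not given here, and its part in the counts of ENG was not tested.

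The signalling receptors moved less. TGFBR2, the type II receptor of TGF-beta, was the receptor with the highest level per kilobase in all 3 lines, at 40.9, 39.8 and 45.7 CPM per kb in Par, LM2 and BrM2. TGFBR2 was at 276, 272 and 292 CPM in Par, 273, 274 and 272 in LM2 and 290, 337 and 311 in BrM2. LM2 differed from Par by -0.04 ± 0.14 on the log2 scale (adjusted p = 0.938) and BrM2 by 0.16 ± 0.14 (adjusted p = 0.587). The activin receptors ACVR1, ACVR1B, ACVR2A and ACVR2B were between -0.16 and 0.18 in both comparisons with Par, and none passed with or without the block. In BrM2 vs LM2, 0 of the 11 receptors were called by edgeR without the block and 0 by DESeq2, and 1 had an unadjusted p under 0.05. With the block 2 were called, where 37.5% of all genes were. TGFBR1 (log2 -0.94, adjusted p = 0.000742) and BMPR1A (log2 -0.52, adjusted p = 0.0138) were lower in BrM2 in that edgeR fit. Both also passed without replicate 1 (0.00154 and 0.0165).

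With the replicate block, receptors were also called in the comparisons with Par. TGFBR1, the type I receptor of TGF-beta, was lower in BrM2 (log2 -0.59 ± 0.37, adjusted p = 0.395 without and 0.00481 with the block). TGFBR3, or betaglycan, which presents TGF-beta2 to TGFBR2, was higher in both, with log2 fold changes of 0.67 ± 0.33 in LM2 and 0.62 ± 0.33 in BrM2 (adjusted p = 0.0184 and 0.0201 with the block). BMPR2, the type II BMP receptor, was at 61.5, 91.9 and 104 CPM in Par, 29.6, 62.1 and 73.7 in LM2 and 25.2, 59.9 and 45.4 in BrM2. Within each line the first replicate was lowest, and only BrM2 did not overlap Par. BMPR2 passed in both comparisons with the block (adjusted p = 0.00608 in LM2 and 0.000486 in BrM2) and without replicate 1 (0.0294 and 0.0027).

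**Figure D3:**
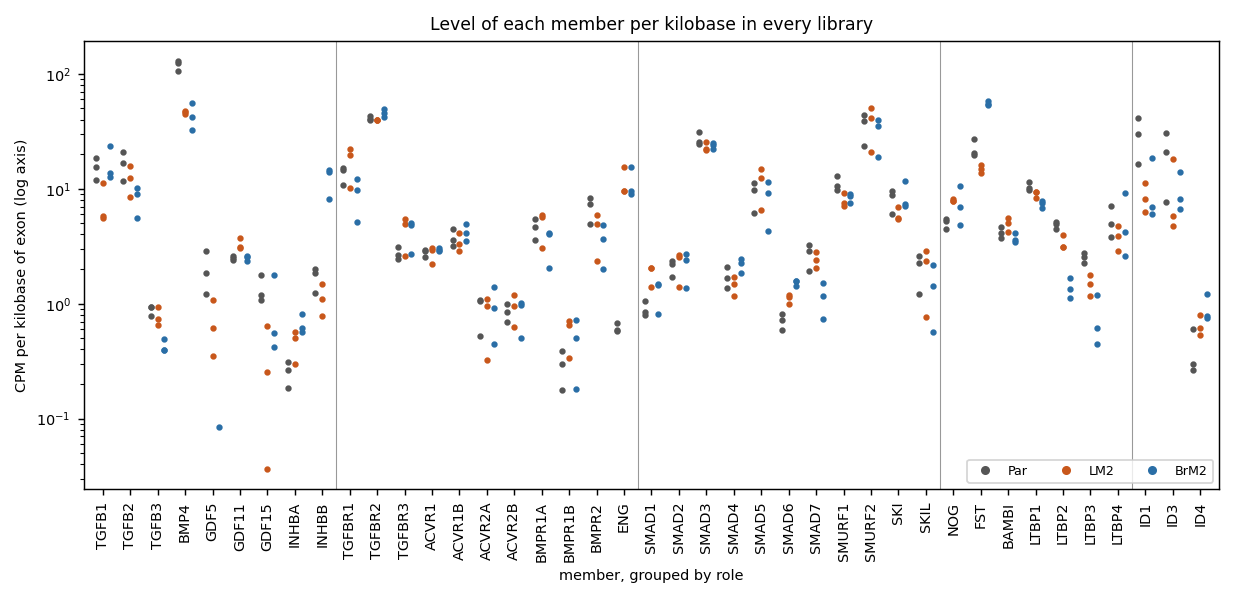
Level of the 41 tested members in each of the 9 libraries, as CPM per kilobase of exon on a log axis, grouped by role from ligands (left) to ID targets (right). BMP4 in Par is the highest level shown, and libraries at 0 CPM (GDF5 in BrM2) cannot be drawn on this axis.

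Among the 11 SMADs and their regulators, 1 was called higher and 1 lower in BrM2, both inhibitory SMADs, and none in LM2 by edgeR without the block, where 3 had an unadjusted p under 0.05 and DESeq2 called 2. The share in BrM2 was 18.2%, beside 13.3% of all genes, and in LM2 8.69% of all genes were called. SMAD6 (chr15:66702236-66782849), which inhibits mainly BMP signalling, was at 6.93, 5.03 and 6.21 CPM in Par, 10.1, 8.53 and 9.81 in LM2 and 13.4, 13.6 and 12.1 in BrM2. The 3 lines did not overlap each other. SMAD6 was 2.15-fold higher in BrM2 than in Par (log2 1.10 ± 0.20, adjusted p = 0.00751), called in all 9 fits that left out a single library. That call did not hold without replicate 2 of every line (adjusted p = 0.308) or replicate 3 of every line (0.21). In LM2 the difference from Par of 0.65 ± 0.20 passed with the block (adjusted p = 0.0932 without and 0.00969 with it), with DESeq2 (0.0168) and without replicate 1 (0.0235). The GTCTAGAC letters shown above begin at position -12, counted from its transcription start.

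SMAD7 (chr18:48919853-48950965), which inhibits both branches, was at 12.7, 11.3 and 7.66 CPM in Par, 11.2, 9.55 and 8.01 in LM2 and 4.65, 5.96 and 2.92 in BrM2. BrM2 lay below all other libraries, 2.33-fold below Par (log2 -1.22 ± 0.32, adjusted p = 0.0345). The call held in 4 of the 9 fits that left out a single library. It did not hold without Par replicate 1 (adjusted p = 0.109), Par replicate 2 (0.114), LM2 replicate 2 (0.0628), BrM2 replicate 1 (0.0673) or BrM2 replicate 3 (0.122), nor in the fit of the 2 lines alone (0.0637). Nor did it hold without replicate 2 of every line (0.308) or replicate 3 of every line (0.233). The difference of BrM2 from LM2 passed with the block (log2 -1.09 ± 0.32, adjusted p = 0.0764 without and 0.00104 with it) and with DESeq2 (0.0156).

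The SMADs that carry the signal differed in how far they moved. Per kilobase, SMAD3 was the highest SMAD in all 3 lines (27.1, 23.1 and 23.7 CPM per kb) and SMURF2, a ubiquitin ligase for receptors and SMADs, the highest of the regulators (35.2, 37.4 and 31.1). SMAD2 and SMAD3 differed from Par by between -0.23 and 0.07 on the log2 scale in both sub-populations and passed in no comparison, with or without the block. SMAD1, which carries BMP signals, was at 5.62, 6.05 and 7.54 CPM in Par and 9.84, 14.6 and 14.4 in LM2, with no overlap, and the difference (log2 1.01 ± 0.29) passed with the block (adjusted p = 0.0703 without and 0.00124 with it). It also passed with DESeq2 (0.00548), without replicate 1 (0.0029), without LM2 replicate 1 (0.0431) and without BrM2 replicate 1 (0.0318). SMAD4, SMAD5, SMURF1, SKI and SKIL were called in at least 1 comparison with the block and not without it, at log2 fold changes between -0.55 and 0.59.

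Of the 7 antagonists and latent binding proteins tested, 1 was called higher and 2 lower in BrM2 than in Par, and none in LM2 by edgeR without the block, where 3 had an unadjusted p under 0.05 and DESeq2 called 1. The share in BrM2 was 42.9%, beside 13.3% of all genes, and in LM2 8.69% of all genes were called. FST (chr5:53480629-53487134) encodes follistatin, which binds activins and blocks them. FST was at 53.6, 56 and 74.1 CPM in Par, 44.1, 41.1 and 37.4 in LM2 and 147, 159 and 150 in BrM2. BrM2 was above all other libraries, 2.48-fold over Par (log2 1.31 ± 0.18, adjusted p = 0.0019) and 3.72-fold over LM2 (log2 1.90 ± 0.19, adjusted p = 0.000485), and both calls held in all 9 fits that left out a single library. Neither held without replicate 2 of every line (adjusted p = 0.175 and 0.0932) or replicate 3 of every line (0.06 and 0.0585). LM2 was below Par with no overlap, and passed with the block (log2 -0.58 ± 0.18, adjusted p = 0.0931 without and 0.00998 with it), with DESeq2 (0.0337) and without replicate 1 (0.00696). Both FST and the activin subunit genes INHBA and INHBB were higher in BrM2 than in Par.

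The latent binding proteins anchor TGF-beta in the extracellular matrix. LTBP2 (chr14:74498183-74612237), the member of this group that does not bind latent TGF-beta, was at 40.9, 46.6 and 44.9 CPM in Par, 35.6, 28.5 and 28.1 in LM2 and 15.1, 10.1 and 12.1 in BrM2. The levels of the 3 lines did not overlap. BrM2 was 3.56-fold below Par (log2 -1.83 ± 0.22, adjusted p = 0.000745) and 2.47-fold below LM2 (log2 -1.31 ± 0.21, adjusted p = 0.00584). Neither call held without replicate 2 of every line (adjusted p = 0.105 and 0.285) or replicate 3 of every line (0.0886 and 0.264). The difference of LM2 from Par passed with the block (log2 -0.52 ± 0.21, adjusted p = 0.192 without and 0.0187 with it) and without replicate 1 (0.00697).

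LTBP3 (chr11:65538559-65558359), which is needed for secretion of latent TGF-beta, was at 29.4, 31.8 and 26.2 CPM in Par, 20.6, 17 and 13.4 in LM2 and 13.8, 5.12 and 7.09 in BrM2. BrM2 was 3.38-fold below Par (log2 -1.76 ± 0.36, adjusted p = 0.0126), a call that did not hold without Par replicate 2 (adjusted p = 0.0509) or BrM2 replicate 3 (0.066). Nor did it hold without replicate 2 of every line (0.316) or replicate 3 of every line (0.266). LTBP3 was also lower in LM2 than in Par and in BrM2 than in LM2 with the block (adjusted p = 0.019 and 0.00724) and without replicate 1 (0.0118 and 0.00381). Neither of these was called with all libraries and no block. LTBP1 was below Par in every BrM2 library and passed with the block (log2 -0.50 ± 0.16, adjusted p = 0.0848 without and 0.00682 with it), with DESeq2 (0.00969) and without replicate 1 (0.0143). LTBP4, NOG and BAMBI were not called in BrM2 vs Par with or without the block, and NOG, the BMP antagonist noggin, passed in LM2 with the block (log2 0.65 ± 0.28, adjusted p = 0.0236) and without replicate 1 (0.0354).

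The ID genes, targets of BMP signalling that encode inhibitors of basic helix-loop-helix factors, included 3 tested members. None was called in any comparison in the edgeR fit of the filtered genes in all libraries without the block. In BrM2 vs Par 2 had an unadjusted p under 0.05 and DESeq2 called 2, and in LM2 vs Par these counts were 1 and 1. ID1 was at 36.7, 51.2 and 20.3 CPM in Par, 13.9, 10 and 7.7 in LM2 and 22.9, 7.42 and 8.48 in BrM2. LM2 lay below all Par libraries and BrM2 replicate 1 overlapped Par. The difference of LM2 (log2 -1.78 ± 0.51, adjusted p = 0.0667) and of BrM2 (log2 -1.49 ± 0.50, adjusted p = 0.0939) passed with the block (0.00135 and 0.00229). Both also passed without replicate 1 (0.00647 and 0.00361), without BrM2 replicate 1 (0.0186 and 0.0134) and with no filter on low counts (0.00428 and 0.0143). They passed with DESeq2 too (0.00903 and 0.0347), and that of LM2 with only the 2 lines fitted (0.0402). ID3 was at 46, 31.3 and 11.5 CPM in Par, 27.2, 8.73 and 7.05 in LM2 and 20.9, 12.2 and 10 in BrM2, with replicate 1 highest in every line. The lines overlapped, and both differences from Par, -1.05 ± 0.63 in LM2 and -1.05 ± 0.63 in BrM2 on the log2 scale, passed with the block (adjusted p = 0.00546 and 0.0111), that of LM2 also without replicate 1 (0.0292). ID4 was at 1.16, 2.32 and 1.02 CPM in Par and 3.03, 4.72 and 2.88 in BrM2, opposite in sign to ID1 and ID3 (log2 1.25 ± 0.38, adjusted p = 0.0653 without and 0.00564 with the block). ID4 also passed with DESeq2 (0.0103), without replicate 1 (0.0454) and without Par replicate 2 (0.0308).

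The 6 members below the filter were at or near the limit of detection in at least 1 line. BMP2 held 4, 5 and 8 counts in Par, 35, 41 and 45 in LM2 and 15, 34 and 23 in BrM2, so that all libraries of both sub-populations were above all Par libraries. In the fit without a filter BMP2 was called higher in LM2 (log2 2.71 ± 0.47, adjusted p = 0.000139) and in BrM2 (log2 2.24 ± 0.48, adjusted p = 0.00145). BMP6 held 4, 10 and 4 counts in Par, 13, 8 and 19 in LM2 and 21, 26 and 27 in BrM2, and was called in that fit in BrM2 vs Par alone (log2 2.22 ± 0.52, adjusted p = 0.00465). ID2 held 38, 25 and 14 counts in Par, 4, 4 and 6 in LM2 and 8, 29 and 27 in BrM2, and was lower in LM2 than in Par (log2 -2.61 ± 0.55, adjusted p = 0.00206) and higher in BrM2 than in LM2 (log2 2.41 ± 0.56, adjusted p = 0.00591). ACVRL1 held at most 6 counts and GREM1 at most 1 count in any library, and GDF6 held 0 counts in all 9 libraries, which allows a level of up to 0.115 to 0.221 CPM per library from 3 counts.

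**Figure D4:**
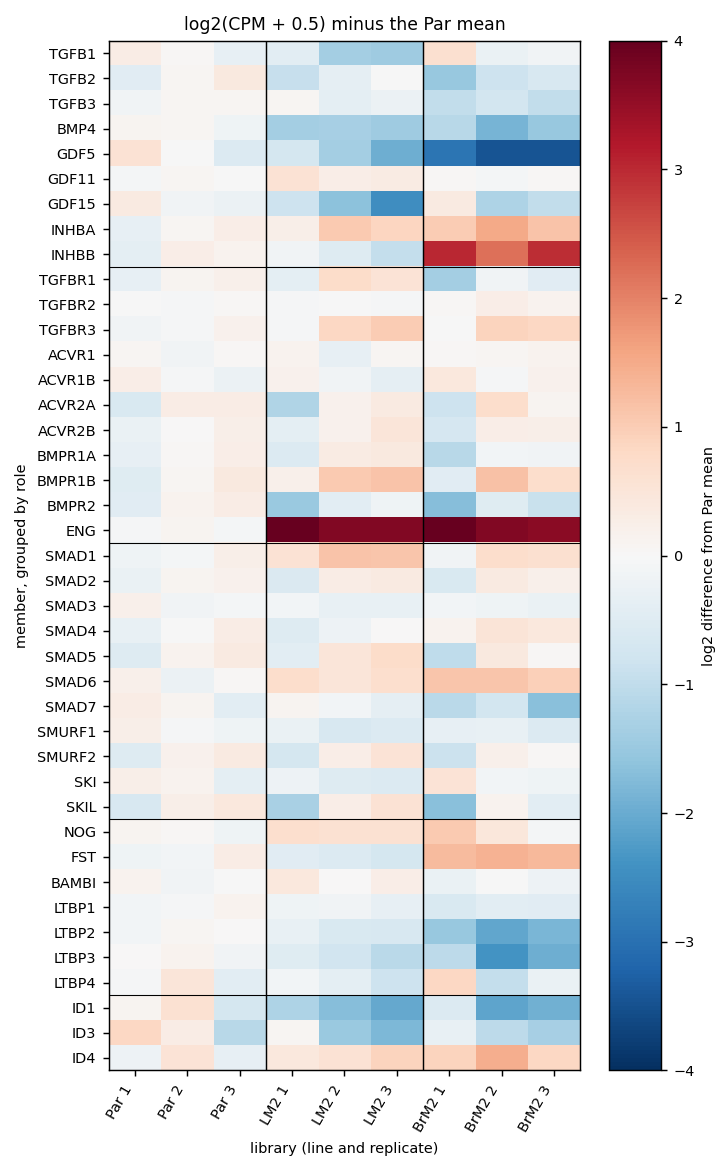
Log2(CPM + 0.5) of the 41 tested members in the 9 libraries, minus the mean of the 3 Par libraries (colour, red higher and blue lower), grouped by role. ENG is red in all 6 LM2 and BrM2 libraries and INHBB in the 3 BrM2 libraries, and the first library of each line differs from the other 2 in many rows.

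The first replicates also set the order within many members. Replicate 1 was the lowest of the 3 in every line for 15 of the 41 tested members and the highest in every line for 8. The same counts over all genes are not given here, so that these describe the members only. SKIL and ACVR2A were lower in replicate 1 by 1.40 and 1.20 on the log2 scale, while ID3 was higher by 1.29 and GDF15 by 1.09. Across the 41 members this difference went with the GC content of the transcript with a Spearman correlation of 0.908, and across 12989 genes with 0.823, where the genes share the 9 libraries and are not independent replicates. The 17 differences that were called with all libraries remained called without replicate 1.

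The other genes of the pathway were taken from lists of 111 genes in the table, 70 of which were tested. These lists were chosen with earlier results of these data known, so that their shares describe the lists and are no independent test. They were called in 13 cases in LM2 vs Par, 17 in BrM2 vs Par and 16 in BrM2 vs LM2, or 18.6%, 24.3% and 22.9% of those tested against 8.69%, 13.3% and 8.1% of all genes. With the block the counts were 35, 39 and 40, or 50%, 55.7% and 57.1% of those tested against 34.5%, 42.7% and 37.5% of all genes. Of 23 tested genes known as TGF-beta targets, 8 were called in LM2 vs Par, all of them higher in LM2. That is 34.8% of the list against 8.69% of all genes, and in BrM2 vs Par the shares were 21.7% and 13.3%. In BrM2 vs LM2, 11 were called lower and 2 higher, which is 56.5% of the list against 8.1% of all genes, of which 3.99% were lower, and in BrM2 vs Par 2 were higher and 3 lower. With the block the counts for BrM2 vs LM2 were 18 lower and 3 higher, where 19.7% of all genes were lower. The list's median log2 fold change was 0.70 for LM2 vs Par and -0.94 for BrM2 vs LM2, which share the LM2 libraries, against 0.01 and -0.03 over all genes. MMP2 and PDGFB of this list held at most 15 counts in any Par or BrM2 library and passed the filter on low counts through LM2 alone. In both comparisons with LM2 they could thus be called only as higher in LM2.

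MMP2, a matrix metalloproteinase, was between 10 and 19.4 CPM in LM2, at most 0.788 CPM in Par and at most 0.369 CPM in BrM2. The log2 fold change was 4.88 ± 0.68 in LM2 vs Par (adjusted p = 0.00255) and -6.05 ± 0.76 in BrM2 vs LM2 (adjusted p = 0.00156). TGFBI, an extracellular protein named for its induction by TGF-beta, was between 166 and 210 CPM in Par and between 20.8 and 27.5 CPM in BrM2 (log2 -3.04 ± 0.25, adjusted p = 0.00017), and -3.81 ± 0.26 below LM2 (adjusted p = 8.13e-05). COL1A1, a fibrillar collagen, was higher in LM2 than in Par (log2 2.67 ± 0.37, adjusted p = 0.00257) and lower in BrM2 than in LM2 (log2 -2.51 ± 0.37, adjusted p = 0.00364). PDGFB, a growth factor, showed the same with 3.55 ± 0.62 and -2.28 ± 0.56 (adjusted p = 0.00755 and 0.0406). The second of these held in 3 of the 9 fits that left out a single library, and was lost without Par replicate 2 (adjusted p = 0.0799), LM2 replicate 1 (0.0719), LM2 replicate 2 (0.116), BrM2 replicate 1 (0.061), BrM2 replicate 2 (0.137) or BrM2 replicate 3 (0.172). The smooth muscle gene TAGLN was lower in BrM2 than in LM2 by -2.19 ± 0.39 (adjusted p = 0.00873), and shares 34.1% of its exon length with PCSK7 on the opposite strand. Opposite in direction, JUNB was higher in BrM2 than in LM2 (log2 2.71 ± 0.59, adjusted p = 0.0245, 14.2% of its exon length shared with HOOK2, and not without LM2 replicate 2, LM2 replicate 3 or BrM2 replicate 3 at 0.108, 0.101 and 0.0565) and TNS1, tensin 1, was higher in BrM2 than in Par (log2 2.20 ± 0.23, adjusted p = 0.000377). Without replicate 2 of every line, and also without replicate 3, the calls given for MMP2, COL1A1, PDGFB, TAGLN and JUNB were lost (adjusted p = 0.0557 to 0.546, edgeR). PDGFB and JUNB in BrM2 vs LM2 were also lost with only the 2 lines fitted (0.0505 and 0.067). TNS1 was lost without replicate 2 of every line (0.0502), while both calls of TGFBI held under all 18 alternatives.

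**Figure D5:**
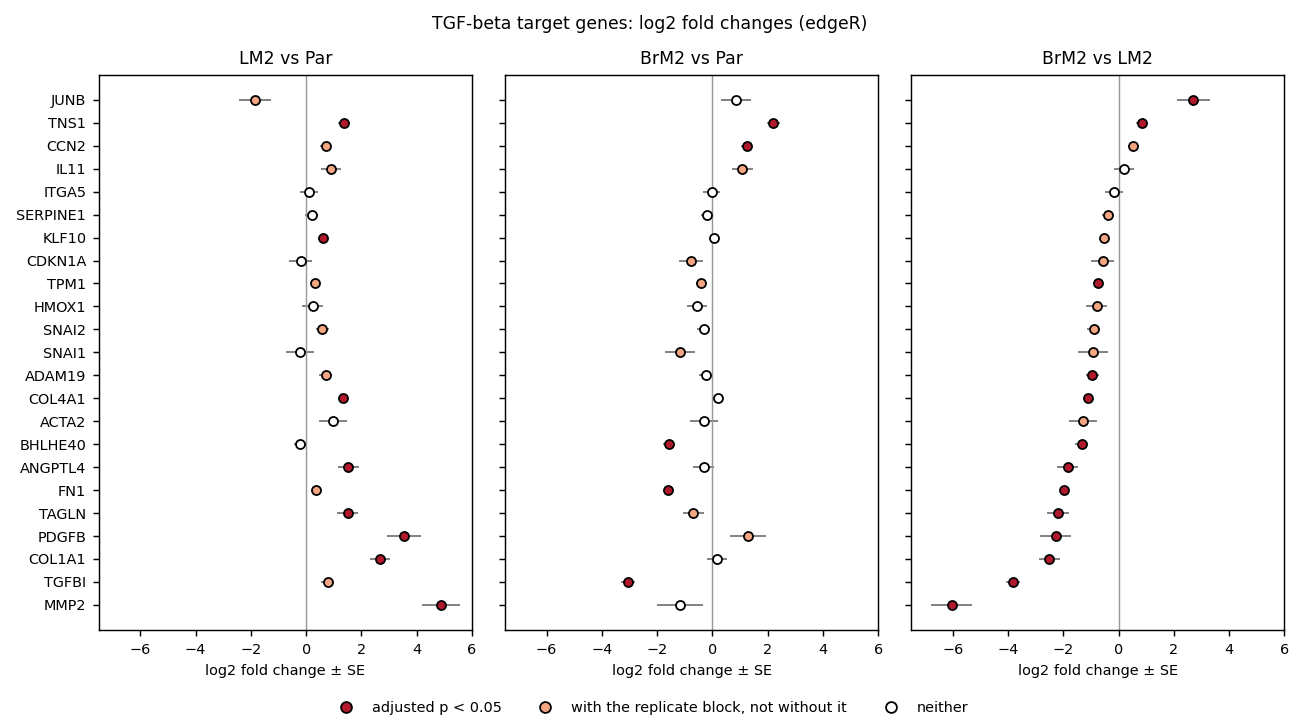
Log2 fold change ± SE (edgeR, x axis) of the 23 tested TGF-beta target genes, ordered by their change in BrM2 vs LM2, with filled points where the call is as in the plot of the members. In LM2 vs Par 8 genes are dark and all to the right, while in BrM2 vs LM2 11 are dark to the left and 2 to the right.

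Outside the target list, feedback and extracellular genes were named by the same rule. PMEPA1, a feedback inhibitor that TGF-beta induces, was between 99.3 and 100 CPM in Par, 140 and 162 in LM2 and 13.5 and 20.8 in BrM2 (log2 -2.62 ± 0.21 vs Par, adjusted p = 0.000138). CHRDL1, a BMP antagonist, was between 7.93 and 10.3 CPM in Par and between 70.7 and 101 CPM in BrM2 (log2 3.30 ± 0.24, adjusted p = 8.64e-05). BMPER, another BMP-binding protein, was higher in BrM2 than in LM2 (log2 2.43 ± 0.30, adjusted p = 0.00141). That call did not hold without replicate 2 of every line (adjusted p = 0.123) or replicate 3 of every line (0.0537). SOST, or sclerostin, was lower than in Par in LM2 (log2 -3.99 ± 0.75, adjusted p = 0.011) and in BrM2 (log2 -3.995 ± 0.77, adjusted p = 0.009), the latter not without BrM2 replicate 2 (0.0515) or BrM2 replicate 3 (0.0548). Neither call of SOST held without replicate 2 of every line (adjusted p = 0.224 and 0.167) or replicate 3 of every line (0.29 and 0.201). SOST held at most 13 counts in any LM2 or BrM2 library and passed the filter on low counts through Par alone. It could thus be called only as lower than Par. The BMP target MSX2 was higher in both, by 2.63 ± 0.37 in LM2 (adjusted p = 0.00269) and 2.601 ± 0.37 in BrM2 (adjusted p = 0.00205). Neither call of MSX2 held without replicate 2 of every line (adjusted p = 0.106 and 0.0855) or replicate 3 of every line (0.136 and 0.0903). MSX2 held at most 20 counts in any Par library and passed the filter through LM2 and BrM2 alone. It could thus be called only as higher than Par. Of 7 BMP targets tested, 1 was called higher and 1 lower in LM2 and 2 higher and 1 lower in BrM2. That is 28.6% and 42.9% of this short list, beside 8.69% and 13.3% of all genes. Of 10 tested genes that activate latent TGF-beta, the integrin subunit ITGB5 and thrombospondin THBS1 were called lower in BrM2 than in Par (log2 -1.69 ± 0.34 and -1.32 ± 0.23, adjusted p = 0.0113 and 0.00524), ITGB5 not without BrM2 replicate 2 (0.0623) or BrM2 replicate 3 (0.0596). That is 20% of the list, beside 13.3% of all genes. Neither call held without replicate 2 of every line (adjusted p = 0.261 and 0.135) or replicate 3 of every line (0.224 and 0.111).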

How the data were processed

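RNA-seq counts of 9 libraries (3 each of Par, LM2 and BrM2) were analysed. The authors prepared stranded mRNA libraries, aligned paired-end reads to hg38 with STAR 2.7.0 (submitters' processing notes) and deposited raw read counts per gene. A second deposited table holds the authors' own DESeq2 comparisons as log2 fold changes and adjusted p-values and was not used. Columns of other samples were 0.

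The table had 58887 rows. Of 3 repeated identifiers the first row was kept, since the rows held the same counts. Genes were filtered after HTSFilter (100 thresholds between 1 and 200, loess span 0.3, chosen threshold 47.15, 99.64% to 99.78% of counts kept). The 3 lines were fitted together in edgeR 4.0.16 with TMM and tested with its 2-sided quasi-likelihood test with Benjamini-Hochberg adjustment over 13055 genes. SE is the log2 fold change divided by the root of F, and CPM used TMM library sizes. CPM per kb used union exon length. R 4.3.3, limma 3.58.1, DESeq2 1.42.0, Python 3.11.15 and matplotlib 3.10.9 were used. Positions and promoter windows came from RefSeq (GRCh38.p14), and lengths and GC content from GENCODE transcripts.

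Members and lists were chosen with earlier results of these data known. Values per library are given for members called in at least 1 comparison, for some others where the replicate block changed the call, and for TGFBR2; other pathway genes are named where called with an absolute log2 fold change of at least 2. These others, TGFBR2, ITGB5 and THBS1 were chosen after their values were seen. Deviations from the line means correlated at 0.244 to 0.912 in all 9 pairs of libraries with 1 replicate number, which was therefore taken to pair them (found from the values, and the sources do not say what a number stands for). Replicates 2 and 3 of different lines also correlated, at 0.413 to 0.825, so that the pairing of these numbers is not clear from the values. Calls with the block rest on this pairing. Common dispersion was 0.11 without and 0.021 with the block. Replicate libraries differed by more than sampling noise. A line at or under 3 counts was treated as at the floor. Fits were tested on simulated data, and 18 alternatives were tried. Not every overlap of members with other genes is reported here.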

Additional observations from a re-analysis of the deposited data

Results flagged for a closer look

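Of the members, 4 differed between the sub-populations in the direct test of BrM2 vs LM2. GDF5 was lower in BrM2, with a fitted log2 fold change of -4.88, a value that depends on the prior count because BrM2 held 3, 0 and 0 counts. With these counts GDF5 could be called only as lower in BrM2. INHBB was higher in BrM2 by 3.44 on the log2 scale and FST by 1.90. LTBP2 was lower in BrM2 by -1.31. The libraries of BrM2 and LM2 did not overlap in any of these 4 genes, where 14 of the 41 tested members and 23.1% of all genes tested did not overlap. The 4 genes were picked by their call, so that this is not separate support for it.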

How the results depend on the processing

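Of the differences printed with a test, those of tested members and other pathway genes that were called, with or without the block, kept their direction under the 18 alternatives. The members below the filter and the cell type markers were not followed through these. Leaving out libraries moved TGFBR2 in LM2 vs Par, which was not called, between -0.059 and 0.041, the highest without replicate 3. It moved ENG in BrM2 vs LM2, also not called, between -0.30 and 0.24, with values above 0 without LM2 replicate 1 (0.24), BrM2 replicate 2 (0.072), BrM2 replicate 3 (0.12) and replicate 3 (0.02). The 3 comparisons gave 2, 11 and 4 members called in LM2 vs Par, BrM2 vs Par and BrM2 vs LM2. In LM2 vs Par they were 6 with DESeq2, 6 with no filter on low counts, 4 with edgeR's filterByExpr and 21 with the replicate block. The other comparisons gave 23 with the block in BrM2 vs Par, and 7 with DESeq2 and 18 with the block in BrM2 vs LM2. Over all genes, the 1134 called in LM2 vs Par were 1893 with DESeq2 and 4510 with the block, the 1733 in BrM2 vs Par were 5577 with the block, and the 1057 in BrM2 vs LM2 were 1824 with DESeq2, 4896 with the block and 598 when only the 2 lines were fitted. Other pathway genes were 23 with DESeq2 and 35 with the block in LM2 vs Par, 39 with the block in BrM2 vs Par, and 40 with the block and 10 with only the 2 lines in BrM2 vs LM2. Pairing by replicate number, the block, thus raised every count by over 1.5 times. Beyond the members named with blocked values in the text, GDF11, GDF15 and BMPR1B also passed with it in at least 1 comparison, and BMPR1A in BrM2 vs Par. The cause of these shifts was not tested.

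Leaving out 1 library, or 1 replicate number of all lines, gave 1 to 20 members in LM2 vs Par, 2 to 20 in BrM2 vs Par and 0 to 10 in BrM2 vs LM2. Over all genes the ranges were 70 to 4327, 159 to 5274 and 53 to 4257, and over other pathway genes 0 to 35, 3 to 35 and 2 to 33. The highest values were without replicate 1 and the lowest without replicate 2, in some equal to those without replicate 3. The edgeR counts of 0 members were without replicate 2, with 6 at an unadjusted p under 0.05, and without replicate 3, with 5, and those of 0 other pathway genes in LM2 vs Par had 12 and 17. With a single library left out, members called were 2 to 4, 7 to 11 (7 without BrM2 replicate 3) and 3 to 5, where LM2 vs Par gave 4 without LM2 replicate 1 or BrM2 replicate 1.

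Depth limits members near the floor. In BrM2 replicate 1, the shallowest library, 3 counts are 0.221 CPM, and ACVRL1, GREM1 and GDF6 could not be compared.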
